A study of Arabidopsis thaliana with 2 samples.

Results

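Of the 13993 summits of MBD9 ChIP-seq peaks, 655 (4.68%) lay just past the ends of genes. These members were chosen by position alone. Each is a single base at which the peak caller placed a summit, and a peak can hold several. It lies in no annotated gene and 1 to 500 bp beyond the 3′ end of a protein-coding gene, and bases within 1000 bp upstream of the transcription start site (TSS) of any annotated gene, or within 100 bp of a tRNA gene, were left out. The protein-coding gene whose end was nearest is called the host.

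The chromatin came from *Arabidopsis thaliana* seedlings of the Col-0 ecotype, taken 13 days after germination, and the labels name shoots as the stage sampled. One group was the MBD9-3xFLAG line, labelled T4, which carries *MBD9* with a 3xFLAG tag under its own promoter in the *mbd9-3* mutant. The other was wild type without a tag. Both were precipitated with the same anti-FLAG antibody, and each group had 1 library, so no value has a replicate check. Peaks in the tagged line were called against the wild-type library, and the tissue mixes many cell types.

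MBD9 carries a methyl-CpG-binding domain and associates with SWR1, the remodeler that exchanges histone H2A for the variant H2A.Z. In plants H2A.Z is best known at the nucleosomes that follow the TSS, next to the open DNA of promoters. The 3′ end of a gene, where transcripts are cleaved and polyadenylated and the polymerase leaves the template, also borders open DNA. When the next gene points the same way (tandem), this DNA leads on to that gene's promoter. When it points the other way (convergent), the DNA lies between 2 gene ends and has no annotated promoter. Leaving out the 1000 bp upstream of every TSS keeps the annotated promoters out of both kinds.

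Examples of the members are given here as the summit base with 50 bases on each side (RefSeq TAIR10.1, plus strand, 5′ to 3′). They were picked from the 10 members with the highest scores, where the score is −log10 of the q value of the summit. They are shown because the results turn on short motifs. Capitals mark the G-box CACGTG and the TCP motif GGNCCCAC, on either strand. Every window of the 10 that held either motif is shown, so the examples are not typical. Of all members, 7.79% held the G-box and 2.14% the TCP motif.
AT1G29630, chr1:10353918-10354018: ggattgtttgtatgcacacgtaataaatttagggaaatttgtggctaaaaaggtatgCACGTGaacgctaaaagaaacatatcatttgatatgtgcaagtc
LYK4, chr2:10119619-10119719: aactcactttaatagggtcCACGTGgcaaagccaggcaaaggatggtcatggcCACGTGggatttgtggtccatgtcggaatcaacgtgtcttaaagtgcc
ASY3, chr2:19298954-19299054: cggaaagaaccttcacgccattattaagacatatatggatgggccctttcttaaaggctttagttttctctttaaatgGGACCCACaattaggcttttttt
AT1G78010, chr1:29336609-29336709: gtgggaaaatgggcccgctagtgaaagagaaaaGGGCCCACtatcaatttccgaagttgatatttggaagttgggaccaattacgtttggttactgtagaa
BRG2, chr1:29761034-29761134: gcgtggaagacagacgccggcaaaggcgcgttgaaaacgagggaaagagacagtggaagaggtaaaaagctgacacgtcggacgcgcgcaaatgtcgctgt
PKS2, chr1:4879539-4879639: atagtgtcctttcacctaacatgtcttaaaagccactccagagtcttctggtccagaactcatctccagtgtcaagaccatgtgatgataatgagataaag

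The member with the highest score (143) lay 135 bp past the end of AT1G29630, annotated as a 5′-3′ exonuclease family protein. The next gene, AT1G29640, was convergent, and its own end was 1670 bp away. The summit past *LYK4*, which encodes a receptor kinase with extracellular LysM domains that takes part in chitin perception, scored 84.1 at 304 bp. Its window held the G-box at 2 places, and the next gene, the homeodomain gene *BLH4*, was tandem and 6342 bp away. The window past AT1G29630 held it at 1 place.

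The second highest score, 117, was found 488 bp past *ASY3*, whose product belongs to the axis of meiotic chromosomes. Here the next gene was *PIL1*, which encodes a bHLH factor related to the phytochrome-interacting factors, with its TSS 1146 bp further on. A score of 105 was found 175 bp past AT1G78010, annotated as a tRNA modification GTPase, with AT1G78020 in tandem 1871 bp away. Both windows held the TCP motif. The summit past *BRG2* (97.8, at 295 bp) held neither motif, and its window had a GC content of 56.4%.

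The remaining summits of the 10 scored between 82.5 and 93.5. They lay past AT4G19700, which the annotation names *RING* (436 bp), AT1G72175 (486 bp), the Argonaute gene *AGO6* (96 bp), the sterol methyltransferase gene *SMT2* (288 bp) and *PKS2*, a phytochrome kinase substrate gene (282 bp). Of the 10, 4 had a convergent next gene and 6 a tandem one, and 2 held the G-box. All but AT4G19700, which was followed by the lncRNA gene AT4G06920, had a protein-coding gene next.

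Whether gene ends carry summits beyond what their extent gives was addressed by density. The bases that meet the position rule were all listed, 3.82 Mb or 3.20% of the 119 Mb nuclear genome, and are called eligible bases. The 655 members correspond to 172 summits per Mb of eligible bases (95% Poisson interval 159 to 185), against 117 per Mb (116 to 119) over the whole nuclear genome. The density was also above that of 3′ UTRs (682 summits, 131 per Mb, 122 to 142), of the last 500 bp inside protein-coding genes (927 summits, 109 per Mb, 102 to 116) and of intergenic bases farther than 500 bp from gene ends (2366 summits, 130 per Mb, 125 to 135). It was close to the density within 1000 bp upstream of a TSS (5694 summits, 169 per Mb, 165 to 174), and these 2 intervals overlapped. This upstream group, also used below, is not limited to intergenic promoters. It covers annotated genes of every type and holds bases inside neighboring genes, which the member rule leaves out. The density of intergenic promoter bases alone was not computed. Carried out to 1000 bp past the end, the position rule gave 1044 summits in 6.03 Mb, or 173 per Mb. The higher density was thus not limited to the first 500 bp. The part of this wider interval beyond 500 bp belongs to the distal intergenic bases above. Intervals cover counting error only, and summits of 1 peak are not independent. With only the highest-scoring summit of each peak counted, a comparison added after seeing the data, the density was 133 per Mb at gene ends (506 summits, 121 to 145), against 86.9 over the nuclear genome, 85.4 in 3′ UTRs, 70.6 in the last 500 bp of genes, 105 in distal intergenic DNA and 134 upstream of a TSS. Of members 99.8%, and of eligible bases 96.4%, sat in a 50-mer that occurs once in the genome. This share was not computed for the whole genome or the other regions, so the part of mapping in the density differences was not tested.

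The members came from 618 peaks, of which 400 had a single summit. Among the 218 with several, 76 also had a summit inside a gene outside its 3′ UTR, 59 had one in a 3′ UTR, 63 in distal intergenic DNA and 46 upstream of a TSS. No member lay in a peak with more than 8 summits. By chromosome, the density ran from 139 per Mb on chromosome 2 (88 members, 111 to 171) to 188 per Mb on chromosome 5 (167 members, 160 to 219). The intervals of these chromosomes overlapped.

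The comparison of convergent with tandem ends asked whether summits past a gene end depend on the direction of the next gene. Convergent ends held 326 members in 1.93 Mb, or 169 per Mb (151 to 188), and tandem ends held 329 in 1.89 Mb, or 174 per Mb (156 to 194). The ratio of convergent to tandem density was 0.968 (95% interval 0.828 to 1.13, two-sided exact conditional binomial test, p = 0.696). No difference was detected, and the interval holds ratios both below and above 1. The test compares regions of 1 library, so its p covers counting error only. The next gene was protein-coding for 262 convergent and 298 tandem members, and a lncRNA gene for 40 convergent and 17 tandem members. The shares of these gene types over eligible bases were not computed, so these counts do not show a preference of the members.

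**Figure D1:**
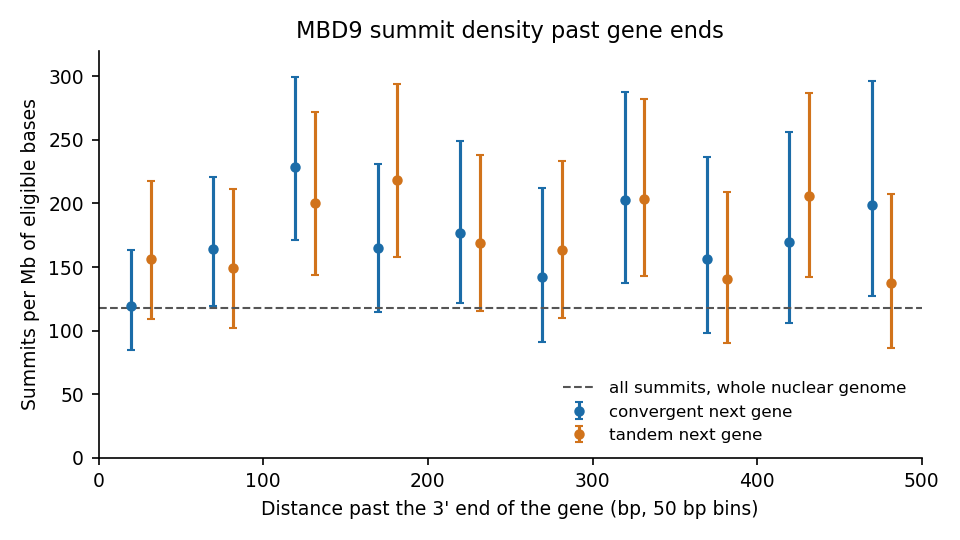
Summits per Mb of eligible bases (vertical axis) in 50 bp bins of distance past the 3′ end (horizontal axis, bp), for ends with a convergent and a tandem next gene. Points are densities, bars are 95% Poisson intervals, the dashed line is the density of all summits over the nuclear genome (117 per Mb), and the intervals of both kinds overlap in every bin.

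Members were not crowded at the gene end itself. Their median distance past it was 207 bp (95% interval 188 to 228), close to the 205 bp of all eligible bases. Within the first 100 bp lay 150 members (22.9%), compared with 27.0% of eligible bases. The density was 135 per Mb in the first 50 bp (74 members, 106 to 169) and 215 per Mb in the third bin, over 100 and up to 150 bp (94 members, 174 to 264), and these intervals did not overlap. The bins were picked as the extremes among 10, and no trend was tested. The median distance was 191.5 bp for convergent and 226 bp for tandem members. Eligible bases differed in the same way, with 184 bp at convergent and 228 bp at tandem ends.

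The distance to the next gene was likewise close to that of the eligible bases. It had a median of 881.5 bp for convergent members, against 822 bp for convergent eligible bases. For tandem members it was 2001 bp, against 1981 bp for tandem eligible bases. Tandem bases always lie more than 1000 bp from the next TSS by the rule. The density of convergent members was 122 per Mb where the next end was within 250 bp (37 members, 85.6 to 168) and 190 per Mb where it was over 500 and up to 1000 bp away (90 members, 153 to 234). At distances over 5000 bp, 3 convergent members gave 51.7 per Mb (10.7 to 151) and 22 tandem members gave 138 per Mb (86.6 to 209). Where both kinds had their next gene over 1000 bp away, a choice made after seeing the data, the ratio was 0.987 (exact p = 0.92).

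**Figure D2:**
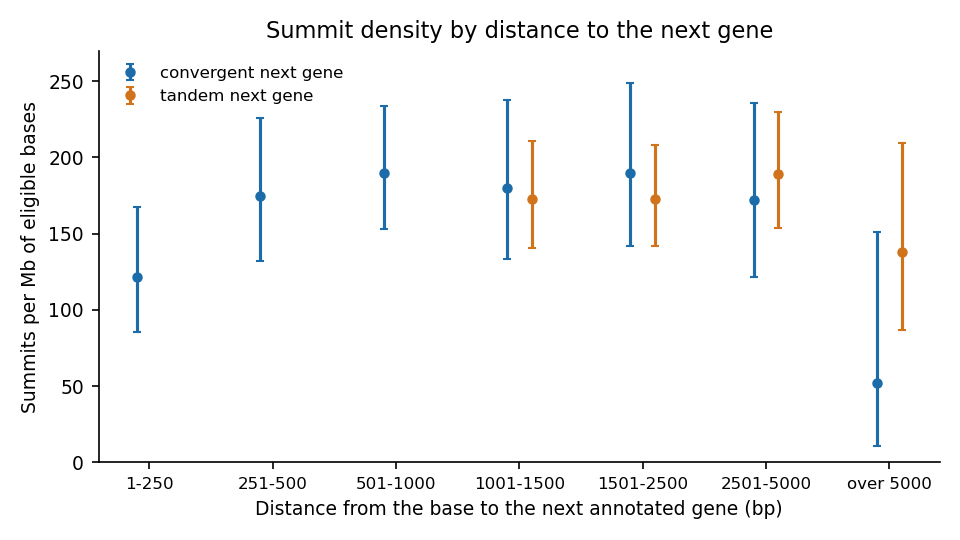
Summits per Mb of eligible bases (vertical axis) by distance to the next annotated gene (horizontal axis, bp), for convergent and tandem next genes. Points are densities and bars 95% Poisson intervals. Tandem points start beyond 1000 bp because the 1000 bp before a TSS were left out, and the convergent point over 5000 bp rests on 3 members.

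Within 500 bp of the ends of 2 converging genes lay 74 members. The highest score among them was the summit past *PKS2*, shown above, which was also 441 bp past the end of *SBH2*, a sphingoid base hydroxylase gene. Next came a summit of score 59.7 between AT5G67350 (106 bp) and AT5G67340 (337 bp). A summit of score 56.6 lay between AT3G61950, which encodes a bHLH protein (47 bp), and the protein kinase gene AT3G61960 (210 bp). These last 2 pairs were named after their values were seen.

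The sequence around the members was richer in G and C than the DNA past gene ends in general. The GC content of this window of 50 bp on each side averaged 35.4% ± 6.32 (SD, n = 655) at members and 30.6% ± 7.05 over all eligible bases, a difference of 4.84 percentage points (95% interval ± 0.484). It was 35.6% at convergent and 35.3% at tandem members, with 31.0% and 30.2% over their eligible bases. Summits in 3′ UTRs (35.5% ± 6.89) and in distal intergenic DNA (36.1% ± 6.95) had similar values, and those upstream of a TSS had 37.5% ± 7.66. The difference was 4.83 points when eligible bases were weighted to the members' distances past the end.

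The G-box, a palindrome bound by bHLH and bZIP factors such as the phytochrome-interacting factors, was found within 50 bp of 51 members (7.79%, 95% Wilson interval 5.97 to 10.1). It was found in 1.00% of all eligible windows, a ratio of 7.77. Windows of 25 bp on each side held it at 3.97% of members and 0.496% of eligible bases, and windows of 100 bp at 12.2% of members and 1.98% of eligible bases. G-boxes were densest near the summit. Between 40 and 21 bp before it and from 0 to 19 bp after it, in plus-strand order, there were 15 in each bin, or 1.15 per 1000 members per bp (0.641 to 1.89), against 0.11 per 1000 eligible windows per bp. The profile was uneven, with 7 in the 20 bp just before the summit (0.534 per 1000 members per bp) and 11 between 40 and 59 bp after it (0.84). In the outermost 20 bp bins there was 1 before the summit (0.0763, 0.00193 to 0.425) and 4 after it (0.305, 0.0832 to 0.782), intervals that held the eligible value.

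**Figure D3:**
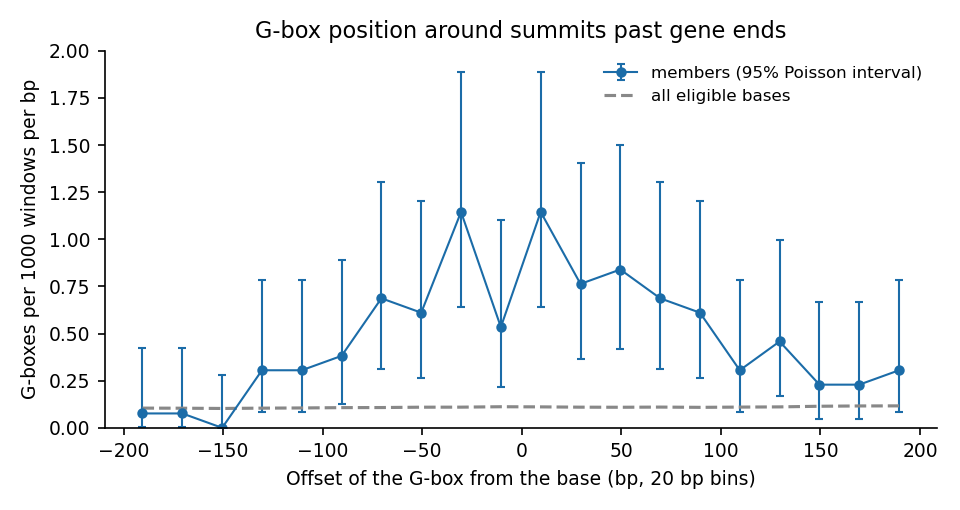
G-boxes per 1000 windows per bp (vertical axis) by offset of the motif from the base (horizontal axis, bp, 20 bp bins). The solid line joins the members, with 95% Poisson intervals, and the dashed line is all eligible bases, which stay near 0.11 throughout.

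The share with a G-box went with the score of the summit. It was 3 of 164 members (1.83%) in the lowest quartile of scores, 9 of 164 (5.49%) in the second, 19 of 164 (11.6%) in the third and 20 of 163 (12.3%) in the highest. Members with a G-box had a median score of 21.4, and members without one had 10.5. Besides AT1G29630 and *LYK4*, high scores with a G-box were found past *AGK2*, a guanylate kinase gene (64.3 at 326 bp), and past *ATE1*, which encodes an arginine-tRNA protein transferase (52.0 at 206 bp). The gene that follows *ATE1* in tandem is *CPD*. A summit of score 49.2 lay 495 bp past the short gene AT1G32650, with the bHLH gene *MYC2* in tandem 8629 bp away. These 3 were chosen after their values were seen and not by rank. Members with a G-box past AT1G01660 (51.1), AT5G03220 (49.9) and AT5G07360 (49.6) scored above the one past AT1G32650.

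Convergent and tandem members held the G-box about equally often, with 25 of 326 (7.67%) at convergent and 26 of 329 (7.90%) at tandem ends. The odds ratio was 0.968 (two-sided Fisher's exact test, p = 1, adjusted p = 1 over 4 tests). Members were then compared with other summits of the list. Their 7.79% was above the 4.55% of 682 summits in 3′ UTRs (odds ratio 1.77, Fisher's exact test, adjusted p = 0.0242). It was below the 11.3% of 2366 distal intergenic summits (odds ratio 0.664, Fisher's exact test, adjusted p = 0.0242) and below the 10.8% of 5694 summits upstream of a TSS (odds ratio 0.699, Fisher's exact test, adjusted p = 0.0242). The call against 3′ UTRs was lost under each of the 4 alternatives tried, and the other 2 calls were lost with 25 bp windows and with scores of at least 10. These p-values cover counting error in 1 library. The groups also differed in median score (members 11.4, 3′ UTR 7.40, distal 14.2, upstream 11.2). They were not matched for score, with which the G-box share of members went.

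Of the 12 motifs searched on both strands, 6 were found at a share whose interval lay above that of eligible bases. The TCP motif GGNCCCAC, known from growth regulators of the TCP family, had 14 members (2.14%, 1.28 to 3.56), against 0.154% of eligible windows, a ratio of 13.9. These 14 split into 7 convergent and 7 tandem members, and their median score was 18.5. ACGTGG, which overlaps the G-box and is the core of elements bound by bZIP factors of the abscisic acid response, was found at 34 members (5.19%) and in 1.55% of eligible windows. In all 67 members held it or the G-box, and 18 held both.

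TGGGCC, the site II element, which can overlap the TCP motif, was found at 39 members (5.95%) and in 2.16% of eligible windows. TTGACC, a W-box bound by WRKY factors, was found at 63 members (9.62%) and in 3.88% of eligible windows, and 40 of these members were tandem and 23 convergent. The eligible share of the W-box was not computed by kind, and this split was not tested. GAGAGA was found at 68 members (10.4%) and in 6.15% of eligible windows. The median score of members with the W-box, 11.8, was close to the 11.4 of those without it. Matches are a description of the letters, and the part of the members' higher GC content in these shares was not tested.

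Motifs rich in A and T were less frequent at members or had overlapping intervals. TATAAA was found at 102 members (15.6%, 13.0 to 18.5) and in 21.6% of eligible windows, and AAAAAA at 175 members (26.7%, 23.5 to 30.2) and in 32.7% of eligible windows. AATAAA has the letters of the polyadenylation signal, but it was counted on both strands around bases past the annotated gene end. It was found at 173 members (26.4%, 23.2 to 29.9), an interval that holds the 28.6% of eligible windows. The intervals of GATAAG (36 members), AAACCCTA (3 members) and AAAATATCT (2 members) also held the share of eligible windows.

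**Figure D4:**
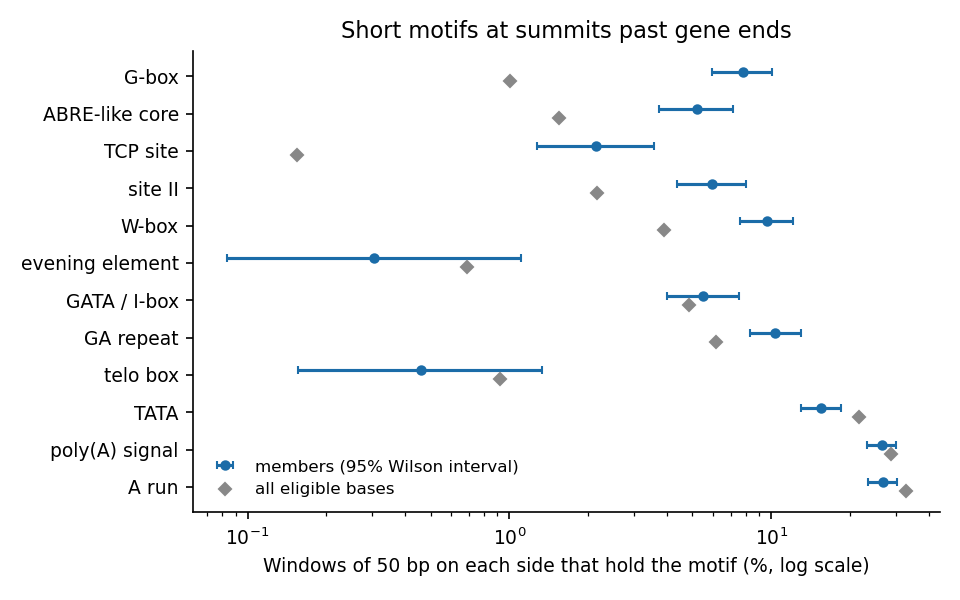
Share of windows of 50 bp on each side that hold each of 12 motifs (horizontal axis, %, log scale) at members (circles, 95% Wilson intervals) and over all eligible bases (diamonds). The G-box and the TCP site lie farthest to the right of their eligible share, at 7.79% and 2.14%.

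The scores show how members rank within the list. Their median was 11.4 (95% interval 9.95 to 12.7), the quartiles were 6.42 and 25.7, and 353 (53.9%, 50.1 to 57.7) scored at least 10. Over all 13993 summits the median was 10.1 (9.90 to 10.3), and 7062 (50.5%, 49.6 to 51.3) scored at least 10. Both intervals of the members overlapped those of all summits. Summits in 3′ UTRs had a lower median of 7.40 (6.88 to 8.17), and distal intergenic summits had a higher one of 14.2 (13.5 to 15.0). Summits upstream of a TSS had 11.2 (10.8 to 11.6), whose interval overlapped that of the members. Convergent members had a median of 11.8 (9.63 to 13.3) and tandem members 11.4 (9.75 to 13.5). The median was 9.17 (7.47 to 12.5) in the first 100 bp past the end, and in the following 100 bp bins it was 9.74, 14.5, 15.1 and 14.0 (10.5 to 20.6). The intervals of the first and last bins overlapped.

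**Figure D5:**
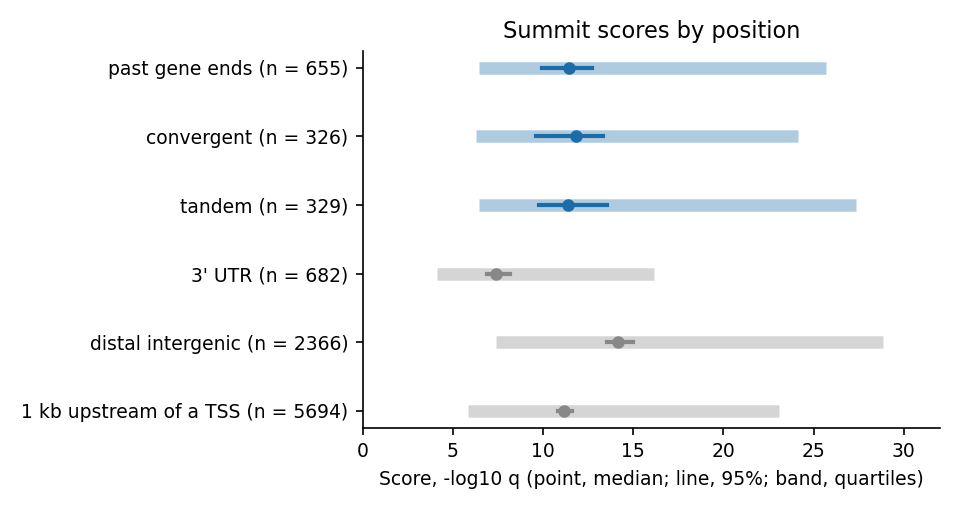
Score (−log10 q, horizontal axis) of members, of convergent and tandem members and of 3 other groups of summits. Points are medians, dark lines their 95% intervals and pale bands the quartiles. The members' median of 11.4 lies between the 7.40 of 3′ UTR summits and the 14.2 of distal intergenic summits.

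Of the 27444 protein-coding genes, 12397 (45.2%) had eligible bases past their end. A member was found past 697 of these, which is a background of 5.62% of gene ends. Here a member counts at every end within 500 bp of it, so the 74 between converging ends count at both genes, and the 697 genes are more than the hosts. In 666 cases there was 1 member, in 30 cases 2, and past AT1G27670 there were 3. The 3 summits past AT1G27670, an uncharacterized gene, belonged to 1 peak and scored 3.77 at 118 bp, 2.45 at 324 bp and 4.37 at 498 bp. Among the ends with 2, *ERF10*, which encodes an ethylene response factor, had summits of 13.1 at 51 bp and 4.56 at 430 bp, in 2 peaks. The bHLH gene AT1G09250 had 16.0 at 114 bp and 20.4 at 346 bp. *GAI*, one of the DELLA repressors of gibberellin signaling, named here after its values were seen, had 12.6 at 5 bp and 26.4 at 363 bp.

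Genes with a member past their end more often had a summit at their start. A summit within 1000 bp upstream of the gene's own TSS was found at 235 of the 697 genes with a member (33.7%, 30.3 to 37.3) and at 1827 of the 11700 genes without one (15.6%, 15.0 to 16.3). Over all 12397 genes the background was 16.6%. When upstream summits of the member's own peak were left out, the share was 31.4%. The 697 genes had a median length of 2188 bp (quartiles 1571 and 3028), against 1936 bp (1179 and 2891) for genes without a member. The part of length, of expression and of open chromatin in this was not tested.

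Shares were also counted over members and eligible bases, with the host as the nearest end. The next gene had an upstream summit at 132 of 329 tandem members (40.1%, 35.0 to 45.5) and at 17.6% of tandem eligible bases. For convergent members, whose next gene has its TSS at the far side, the share was 81 of 326 (24.8%, 20.5 to 29.8), against 14.9% of convergent eligible bases. A summit inside the host itself was found at 155 of 326 convergent members (47.5%, 42.2 to 53.0) and at 15.9% of convergent eligible bases. For tandem members it was 119 of 329 (36.2%, 31.2 to 41.5), against 14.9% of tandem eligible bases. These shares include summits of the member's own peak. Without those, a choice made after seeing the data, a summit inside the host was found at 105 convergent members (32.2%, 27.4 to 37.5) and at 79 tandem members (24.0%, 19.7 to 28.9), and the next gene had an upstream summit at 110 tandem members (33.4%, 28.6 to 38.7) and at 77 convergent members (23.6%, 19.3 to 28.5). The differences between convergent and tandem shares were not tested.

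Families of genes with a member past their end, found by words in the annotation and counted in the same way, are given beside the background of 5.62%. Genes annotated as transcription factors had a member past 21 of 196 ends (10.7%, 7.12 to 15.8), and F-box genes past 5 of 376 (1.33%, 0.569 to 3.07). These were the 2 of 8 families whose interval did not hold 5.62%. For kinases it was 43 of 584 (7.36%, 5.51 to 9.77), for ribosomal proteins 9 of 154 (5.84%), for cytochromes P450 8 of 117 (6.84%), for ubiquitin genes 11 of 164 (6.71%), for heat shock genes 5 of 48 (10.4%, 4.53 to 22.2) and for photosystem or chlorophyll genes 2 of 29 (6.90%). The median number of eligible bases per end was 500 for transcription factors, F-box genes and cytochromes P450. It was 474.5 for kinases, 446 for ubiquitin genes and 345 for heat shock genes. For ribosomal proteins it was 253.5, and for photosystem or chlorophyll genes 160. Shares were not adjusted for this.

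Members past the genes of 4 short lists were counted last, against the same background of 5.62%, and the lists were drawn up with earlier results of these data known. Jasmonate signaling is held back by JAZ repressors, which are degraded when the hormone is sensed. Of 12 jasmonate genes, 5 had eligible bases, and 4 of these had a member. The summit past *JAZ9* (*TIFY7*) scored 13.9 at 348 bp, in a peak with 8 summits, and the gene itself held 7 summits. The others were past *JAZ10* (7.14 at 6 bp), *JAZ7* (6.41 at 24 bp) and *JAZ2* (*TIFY10B*, 5.70 at 462 bp), with 4, 2 and 2 summits inside the gene. Those past *JAZ10*, *JAZ7* and *JAZ2* lay in peaks of 2, 3 and 2 summits, and all scored below the members' median of 11.4. None of these 4 windows held a G-box. No member lay past *JAZ8*, which had 200 eligible bases.

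On the *JAZ2* side, the neighboring convergent gene AT1G74940 had a member of its own, 356 bp past its end, with a score of 11.8 and a G-box, named here after its values were seen. This member and the one past *JAZ2* lay in a peak of 2 summits. Among 14 light signaling genes, 8 had eligible bases and 1 had a member, *PIF4*, which encodes a phytochrome-interacting factor (13.1 at 361 bp, with *PAO2* in tandem 2055 bp away). Of the 13 clock genes 5 had eligible bases, and of the 21 SWR1, ISWI, flowering and H2A.Z genes 7 did, and none of these ends held a member. The flowering genes *FT*, *MAF4* and *MAF5* were among them, whereas *FLC* had no eligible base.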

How the data were processed

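ChIP-seq summits of MBD9-3xFLAG were analysed against the wild-type FLAG control, with 1 library each. The authors aligned reads with Bowtie to TAIR10 without organelles, kept unique reads, removed duplicates with SAMtools and called peaks with MACS2 2.1.1 (q value cutoff 0.01, extension 200 bp). The deposited score of each summit is −log10 of the q value. Peak widths and read numbers were not used here, so depth, and how many weak summits could be seen, is unknown.

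Positions were made 1-based and compared with the RefSeq annotation of TAIR10.1 (37899 nuclear genes), and all summits lay within its chromosome lengths. Its gene ends can differ from those the authors used. In place of random positions, every eligible base was enumerated. Shares carry 95% Wilson intervals and counts exact Poisson intervals. Density ratios were tested with an exact conditional binomial test, G-box shares with Fisher's exact test (Benjamini-Hochberg over 4 tests, threshold 0.05). Motifs had to lie fully within 50 bp of the summit. Distal intergenic summits excluded the 1000 bp upstream of any TSS. Summits upstream of a TSS could lie inside another gene.

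Named members were the 10 with the highest score, the 3 ends with the most members (ties by locus), the highest score within 500 bp of both converging ends and all members past listed genes. These named members and the lists were chosen with earlier results of these data known. Alternatives covered windows, exclusions, scores, summits per peak and mappability. Tests were tried on simulated data. Python 3.11.15, NumPy 2.4.6, SciPy 1.17.1 and Matplotlib 3.10.9 were used.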

Additional observations from a re-analysis of the deposited data

How the results depend on the processing

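Of 70 recomputed values of 12 results, 41 did not change materially, which means the same direction and side of the threshold for a test, a move within the error for a value, and a count within 1.5 times the main one. The number of members alone ran from 445 (2 kb excluded upstream of TSSs) to 837 (500 bp excluded) within that allowance. With scores of at least 10 there were 353 members, at 92.5 per Mb, with a median distance of 236 bp, a GC difference of 5.99 points, a G-box share of 11.6% and an upstream summit at 21.1% of genes with a member past the end, against 9.91% of all such genes. That cutoff kept 7062 of all 13993 summits (50.5%), so 92.5 per Mb is not comparable with the densities of other regions given above. There were 386 members within 250 bp, with a GC difference of 4.24 points, and 1044 within 1000 bp. With 1 summit per peak the density was 133 per Mb. With 100 bp on each side the GC difference was 3.61 points and the G-box share 12.2%, and with 25 bp the G-box share was 3.97%. An upstream window of 500 bp gave 23.0% of genes with a member past the end, against 11.6% of all such genes.

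The convergent to tandem density ratio lay between 0.896 and 1.02 and never passed the threshold. It was above 1 with 2 kb (1.01) or 500 bp (1.01) excluded upstream of TSSs, with ends eligible over all 500 bp (1.02) and with protein-coding genes only (1.01). The convergent to tandem odds ratio of the G-box was 1.04 with 1 summit per peak, 1.39 with 25 bp windows and 1.09 with scores of at least 10. Against 3′ UTR summits the odds ratio was 1.36 with 1 summit per peak, 1.42 with 100 bp windows, 2.31 with 25 bp windows and 1.53 with scores of at least 10, with adjusted p from 0.0684 to 0.553 (Fisher's exact test). Against distal summits it was 0.652 with 25 bp windows and 0.891 with scores of at least 10, and against upstream summits 0.641 and 0.845, all without a call. Fewer motifs or summits entered the tests with 25 bp windows and with high scores. With high scores the odds ratios against 3′ UTR, distal and upstream summits also lay nearer 1 than in the main setting. The cause was not tested. No paired analysis was possible because neither group has a second library.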
